A study of Mus musculus with 24 samples.

Results

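Amino acid carriers of 6 solute carrier families were examined in RNA from mouse kidney after ischemic injury. The members are the genes with a symbol of the Slc1, Slc6, Slc7, Slc36, Slc38 or Slc43 family and at least 1 protein-coding transcript, with the cystine carrier Slc7a11 left out. This rule found 61 of the 53392 genes in the quantification files, of which 7 belong to Slc1, 21 to Slc6, 15 to Slc7, 4 to Slc36, 11 to Slc38 and 3 to Slc43. Slc7a6os matched the rule by its symbol, although it is not a carrier gene. All mice were of the FVB strain, and the groups were injured males, sham males, injured females and sham females. The labels give the injury as ischemic acute kidney injury, with no time after it, and give the sham mice as uninjured. From each group, proximal tubules were collected by microdissection after enzymatic digestion, and endothelial cells with CD31 microbeads, a surface protein of endothelial cells. Each group had 3 libraries of each kind, except sham female endothelial cells with 2.

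The proximal tubule takes back nearly all of the amino acids that the glomerulus filters. Carriers in the apical brush border bring them into the cell, and exchangers and uniporters of the basolateral membrane pass them on to the blood. Several carriers work only with a partner: Slc7 light chains need Slc3a1 on the apical side or Slc3a2 elsewhere, and Slc6a19 needs collectrin in the kidney. Another set of carriers, such as Slc7a5, Slc7a1, Slc1a5 and Slc38a2, feeds growing or stressed cells, and their genes are known targets of the response to amino acid shortage.

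The 23 libraries held 32592517 to 54906972 estimated reads, after the 2 sequenced libraries of sham male tubule replicate 3 were added. Levels of a gene across libraries are given as normalised read counts (CPM, estimated counts scaled to library size within each isolation). Levels of different genes are compared as TPM, which also allow for transcript length. The labels give 3 mice of each sex a group, but do not tie each library to 1 animal, so p-values measure only the spread between these samples. Proximal tubule markers summed to 8568 to 21074 CPM in tubules, with none of the 10 at 0. In endothelial isolates, the endothelial markers summed to 465 to 1972 CPM, against 152 to 405 CPM in tubules, but proximal tubule markers reached 6392 to 20428 CPM in the same isolates. Tubule transcripts were thus measured in every endothelial isolate. Injured male tubule replicate 3 stood apart from the other 2 of its group: its neutrophil markers summed to 4.82 CPM, against 33.3 and 20.1 CPM, and its distal tubule markers to 2302 CPM, against 5322 and 5365 CPM. Injured male endothelial replicate 2, with 120.2 CPM of neutrophil markers against 12.8 and 14.9 CPM, and sham male endothelial replicate 3 also stood apart from their groups. So did sham male tubule replicate 3: 1 of its sequenced libraries, library 3, had a chi-square per degree of freedom over genes of 491 and 598 against replicates 1 and 2, against 39.9 between those 2.

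In tubules, 33 of the 61 members averaged at least 1 TPM, 15 at least 10 TPM and 3 at least 100 TPM. In endothelial isolates the counts were 36, 18 and 2. The members with the highest mean TPM in tubules were carriers of the absorbing epithelium. Slc6a18, an apical carrier of neutral amino acids, averaged 133 ± 27.1 TPM in injured male tubules and 260.2 ± 77.2 TPM in sham male tubules (SD, n = 3 each). In females its mean was 206 ± 15.4 TPM in injured and 227 ± 29.2 TPM in sham tubules. Slc7a7, the basolateral exchanger that is lost in human lysinuric protein intolerance, averaged 100.2 ± 67.9 TPM in injured male, 105 ± 39.8 TPM in sham male, 252 ± 40.5 TPM in injured female and 259 ± 8.52 TPM in sham female tubules. Slc6a19, the main apical carrier of neutral amino acids and the gene of human Hartnup disorder, had a mean of 79.1 ± 23.8 TPM in injured male, 69.4 ± 31.2 TPM in sham male, 132 ± 35.3 TPM in injured female and 127 ± 22.7 TPM in sham female tubules. The creatine carrier Slc6a8 averaged 83.6 TPM over the 6 male and 106 TPM over the 6 female tubule libraries. Over the same libraries, the cystine and dibasic carrier Slc7a9 averaged 45.1 and 95.1 TPM, and Slc6a20b 52.8 and 74.0 TPM. Slc7a13 had the second highest mean in male tubules, at 150.4 TPM, and only rank 20 in female tubules, at 5.45 TPM. It averaged 53.8 ± 22.3 TPM in injured male, 247 ± 35.2 TPM in sham male, 3.52 ± 0.980 TPM in injured female and 7.39 ± 4.11 TPM in sham female tubules. Over all tubule libraries of both sexes, levels ranged from 58.9 to 139 TPM for Slc6a8, 21.6 to 106 TPM for Slc7a9 and 19.7 to 90.1 TPM for Slc6a20b. On GRCm38 (GENCODE M21), Slc6a18 (chr13:73661752-73678023) and Slc6a19 (chr13:73679745-73704865) are neighbours on the minus strand, as are Slc6a20b (chr9:123590800-123632565) and Slc6a20a (chr9:123634770-123678885). Slc7a13 (chr4:19818725-19842218) is on the plus strand, and Slc7a7 (chr14:54369442-54417780) and Slc7a8 (chr14:54722209-54781946) are on the minus strand. In endothelial isolates Slc6a18 was again high, with a mean of 149 TPM over the male and 284 TPM over the female libraries, and Slc7a13 averaged 113 TPM in male and 3.89 TPM in female isolates.

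At the other end, Slc36a3, Slc38a8 and Slc6a21 were among the members with no read in any tubule library. In endothelial isolates Slc38a8 and Slc6a11 had none. Carriers of brain and nerve such as the dopamine carrier Slc6a3, the noradrenaline carrier Slc6a2 and the glycine carrier Slc6a5 were under 0.01 TPM on average in tubules. Slc36a2, a proton-coupled carrier of glycine and proline described in the apical membrane of the kidney, averaged 0.00521 TPM in tubules. The filter on low counts was passed by 43 members in tubules, 44 in endothelial isolates and 45 in the fit of both, and no count below covers the members that failed it.

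**Figure D1:**
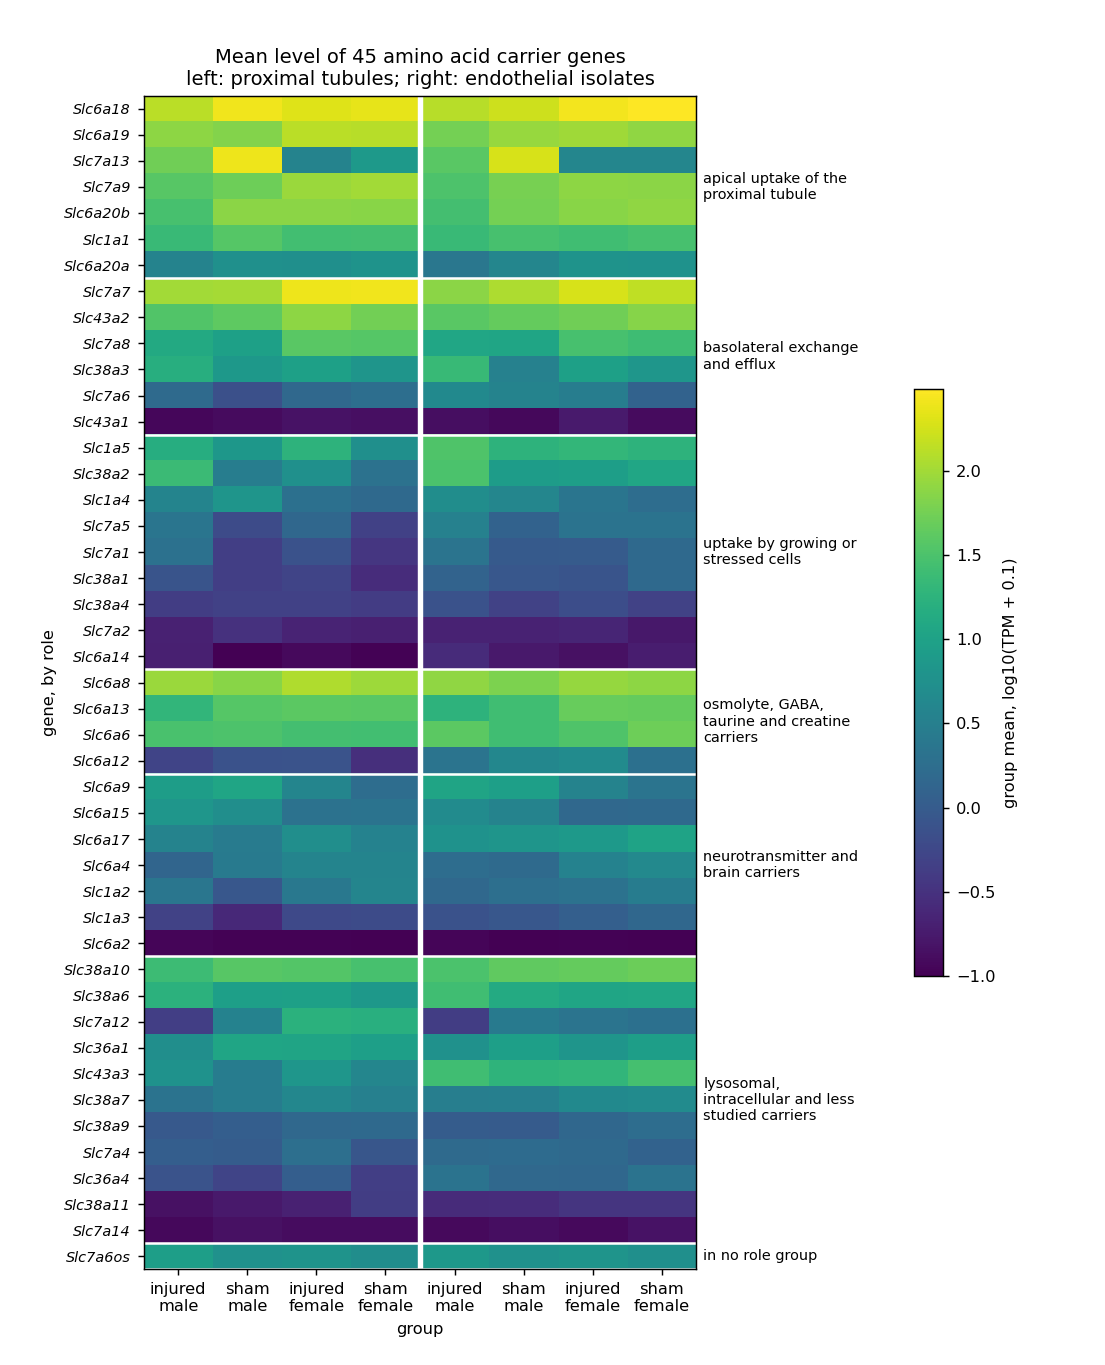
Group means of the 45 members tested in any fit, as log10(TPM + 0.1), by role from top to bottom; the 4 columns on the left are proximal tubules and the 4 on the right endothelial isolates. Slc6a18 and Slc7a7 are among the brightest in both isolations, with means of 206 and 179 TPM in tubules, and Slc7a13 is brighter in the male than in the female columns.

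The first comparison asked how the carriers respond to ischemic injury in male tubules. Of the 43 tested members, 6 were higher and 9 lower in injured than in sham male tubules (edgeR quasi-likelihood test, Benjamini-Hochberg adjusted p under 0.05), which is 34.9% of them against 19% of all genes tested. The median log2 change was -0.299 over the members and -0.026 over all genes. In 6 of the 43 members all injured libraries lay above all sham libraries, and in 15 below, against 14.1% and 16.7% of all genes. The apical carriers made up most of the losses: 5 of 7 tested were lower and none higher. The carriers that feed growing or stressed cells went the other way, with 4 of 8 higher and none lower. Of the remaining groups, 1 of 6 basolateral carriers was higher, 1 of 4 osmolyte carriers was lower, none of 6 brain carriers was called, and 1 was higher and 3 lower among 11 lysosomal, intracellular and less studied carriers. In a fit of the 6 male libraries alone only Slc6a20b passed (2.44% of 41 members tested, against 0.913% of all genes). The rest of the 15 had the same direction, at adjusted p of 0.059 to 0.16. Without injured male replicate 3, all 15 remained and 30 of 44 tested members passed (13 higher and 17 lower, 68.2% against 42.5% of all genes). Without injured male replicate 1 or 2, 7 and 5 members passed (against 6.07% and 4.97% of all genes). Without sham male replicate 1, 2 or 3, 9, 7 and 9 passed (against 8.61%, 6.64% and 8.2% of all genes).

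Among the apical carriers, Slc6a20b had 127, 109 and 153 CPM in injured male tubules, against 334, 344 and 395 CPM in sham male tubules. All 3 injured libraries lay below all 3 sham libraries (log2 change -1.46, SE 0.15, adjusted p = 0.00037). Slc6a18 had 318, 345 and 398 CPM in injured against 792, 853 and 489 CPM in sham male tubules, again with no overlap (log2 change -1.01, SE 0.19, adjusted p = 0.0068). Slc1a1, the carrier of glutamate and aspartate, had 146, 119 and 206 CPM in injured against 266, 271 and 285 CPM in sham male tubules. Every injured library was lower, with replicate 3 nearest to sham (log2 change -0.81, SE 0.17, adjusted p = 0.012). Slc7a13, a partner of Slc3a1 in the straight segment that carries cystine and acidic amino acids, fell the furthest of the apical group. It had 318, 287 and 93.6 CPM in injured male tubules, against 1085, 1044 and 822 CPM in sham male tubules (log2 change -2.08, SE 0.51, adjusted p = 0.02). Slc6a20a, the close relative of Slc6a20b, had 16.2, 13.6 and 17.9 CPM in injured against 25.3, 21.9 and 31.7 CPM in sham (log2 change -0.73, SE 0.18, adjusted p = 0.021). Slc6a20a shares 19.5% of its 31-base words with Slc6a20b, and Slc6a20b shares 20.5% of its own with Sacm1l on the opposite strand, so the split of reads between them is uncertain.

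Not every apical carrier followed. Slc6a19 had 465, 331 and 226 CPM in injured against 174, 235 and 414 CPM in sham male tubules, and the groups overlapped (log2 change 0.31, SE 0.32, adjusted p = 0.51). Slc7a9, the gene of human cystinuria that pairs with Slc3a1, had 73.9, 57.6 and 108 CPM in injured against 105, 119 and 134 CPM in sham (log2 change -0.58, SE 0.20, adjusted p = 0.064). Its replicate 3 overlapped the sham range, and without that library its log2 change was -0.86 (adjusted p = 0.00066). Markers of the proximal tubule moved with this group: 7 of 10 were lower and none higher in injured male tubules, and their sum was 8568 to 11169 CPM in injured against 18042 to 21074 CPM in sham libraries, with none at 0. Their part in the lower carrier levels was not tested, and in bulk libraries fewer cells of a type and less RNA per cell cannot be told apart.

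**Figure D2:**
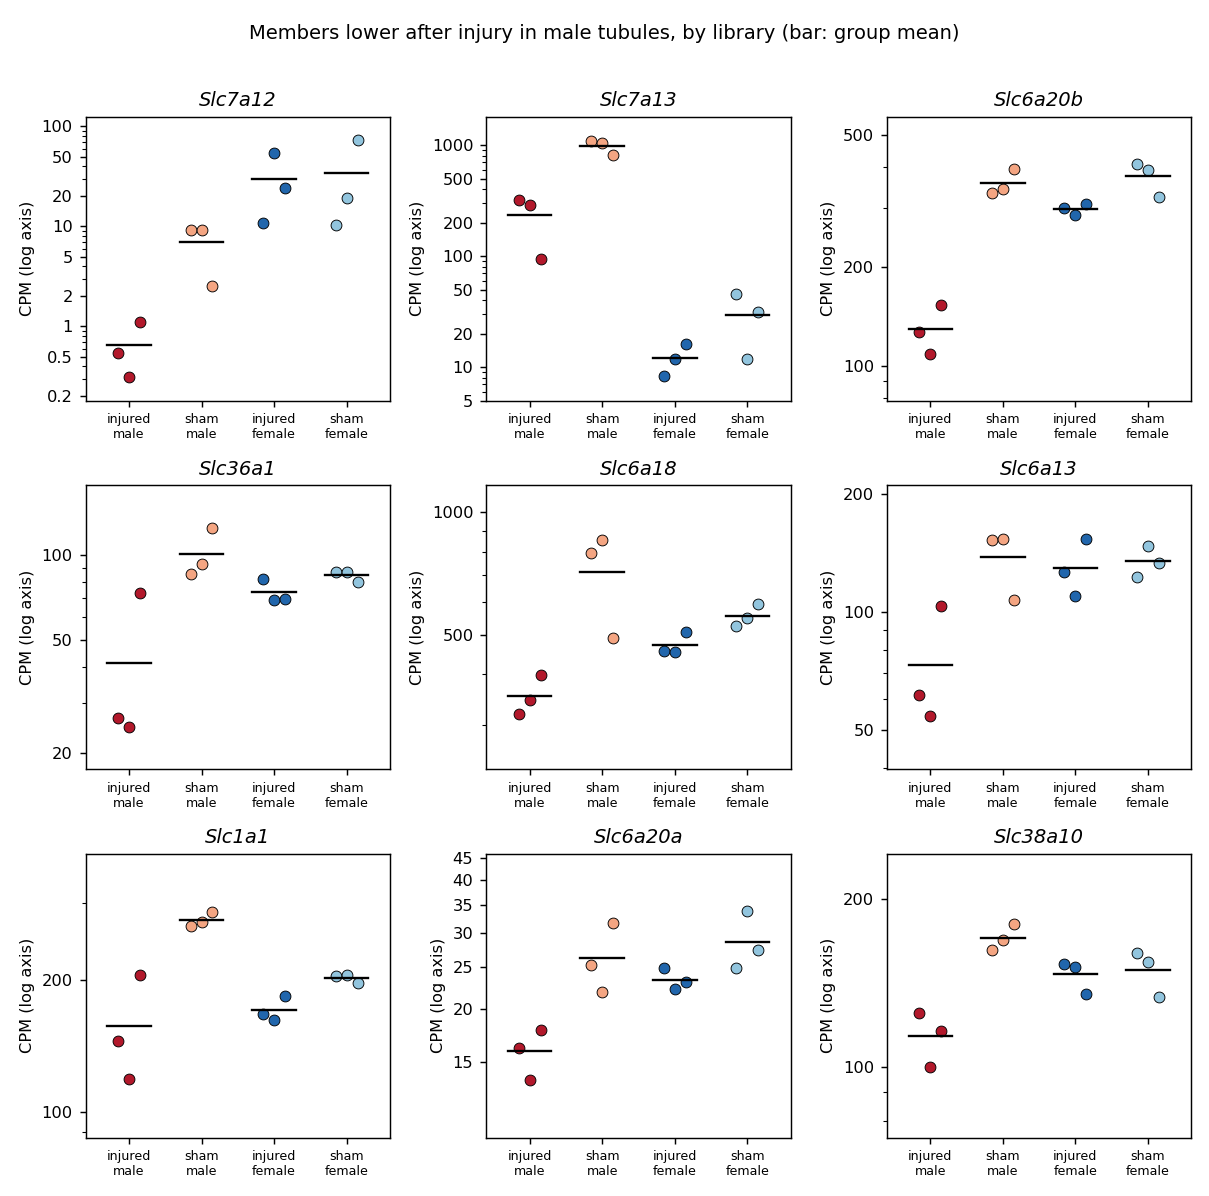
CPM (log axis) of the 9 members that were lower after injury in male tubules, in every tubule library; points are libraries and bars group means. For Slc6a20b the injured males lie lowest, with 127, 109 and 153 CPM, and every other tubule library is at 287 CPM or above.

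Outside the apical group, the largest fall was that of Slc7a12, a carrier of small neutral amino acids described in the mouse. It had 0.540, 0.309 and 1.11 CPM in injured male tubules, against 9.13, 9.31 and 2.55 CPM in sham male tubules. Its injured libraries were all near 1 CPM or below, and all under the lowest sham library (log2 change -3.39, SE 0.89, adjusted p = 0.025). Slc36a1, a proton-coupled carrier of small amino acids on lysosomes, had 26.5, 24.6 and 73.0 CPM in injured against 85.4, 92.7 and 124 CPM in sham (log2 change -1.28, SE 0.35, adjusted p = 0.028). Its groups did not overlap, and replicate 3 was again the injured library nearest to sham. Slc6a13, which carries GABA and taurine, had 61.2, 54.4 and 104 CPM in injured against 153, 153 and 107 CPM in sham (log2 change -0.92, SE 0.24, adjusted p = 0.025). Slc38a10 changed least among the called members, with 125, 99.9 and 116 CPM in injured against 162, 169 and 180.3 CPM in sham (log2 change -0.59, SE 0.12, adjusted p = 0.012). The groups of Slc6a13 and Slc38a10 did not overlap.

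The largest rise was that of Slc38a2, the sodium-coupled carrier of small neutral amino acids that cells induce when amino acids run short. It had 359, 289 and 76.8 CPM in injured male tubules, against 37.2, 25.3 and 20.1 CPM in sham male tubules. All injured libraries were above all sham libraries, and replicate 3 was far below the other 2 (log2 change 3.13, SE 0.45, adjusted p = 0.0022). Slc7a1, the main carrier of arginine and lysine in many cells, had 41.0, 33.7 and 6.14 CPM in injured against 7.40, 3.55 and 2.96 CPM in sham (log2 change 2.54, SE 0.57, adjusted p = 0.014). Here replicate 3 lay within the sham range, between sham replicates 1 and 2. Slc7a5, which brings in large neutral amino acids such as leucine, had 19.7, 18.3 and 5.64 CPM in injured against 4.12, 2.43 and 1.85 CPM in sham, with no overlap (log2 change 2.38, SE 0.45, adjusted p = 0.0071). Slc1a5, a glutamine exchanger, had 41.0, 42.1 and 15.1 CPM in injured against 15.8, 8.90 and 8.09 CPM in sham (log2 change 1.58, SE 0.36, adjusted p = 0.016). Its replicate 3 lay below the highest sham library. The exchanger Slc7a6, a close relative of Slc7a7, had 6.35, 5.76 and 3.15 CPM in injured against 2.64, 1.71 and 2.22 CPM in sham, without overlap (log2 change 1.21, SE 0.33, adjusted p = 0.028). Without replicate 3, the log2 change was 3.56 (adjusted p = 8.2e-07) for Slc38a2, 3.01 (adjusted p = 3e-05) for Slc7a1 and 2.77 (adjusted p = 3.7e-05) for Slc7a5. Neutrophil markers were also higher in injured male tubules, in 4 of 6 tested, with sums of 4.82 to 33.3 CPM in injured and 1.42 to 2.28 CPM in sham libraries, where Mmp8 was at 0. Their part in these rises was not tested.

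Slc38a6, a little studied relative of Slc38a2, was the remaining call, and its value is uncertain. It had 183, 191 and 54.6 CPM in injured against 64.6, 72.4 and 62.0 CPM in sham male tubules (log2 change 1.11, SE 0.34, adjusted p = 0.044), and replicate 3 was below all sham libraries. A single transcript took 73.8% to 98% of its reads in each library, and 62.9% of the 31-base words in that transcript are also found in Noct, which codes for a phosphatase under circadian control. Noct itself had 247, 255 and 62.5 CPM in injured against 83.1, 79.0 and 65.6 CPM in sham male tubules, so replicate 3 was again below all sham libraries.

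The basolateral carriers of high level were not called. Slc7a8, the exchanger of neutral amino acids, had 116, 70.4 and 132 CPM in injured against 56.6, 53.5 and 124 CPM in sham male tubules, with overlap (log2 change 0.44, SE 0.33, adjusted p = 0.37). Slc43a2, a uniporter of branched-chain amino acids, had 99.4, 71.0 and 173 CPM in injured against 135, 111 and 174 CPM in sham, with replicate 3 at the sham level (log2 change -0.29, SE 0.27, adjusted p = 0.47). Slc38a3, a glutamine carrier that the kidney raises in acidosis, had 25.1, 21.0 and 76.2 CPM in injured against 28.6, 21.5 and 18.7 CPM in sham (log2 change 0.83, SE 0.47, adjusted p = 0.23). Here replicate 3 alone was high, and the other 2 injured libraries lay within the sham range. The osmolyte and creatine carriers of high level were not called either: the taurine carrier Slc6a6 had a log2 change of 0.11 and Slc6a8 one of 0.28. Slc6a17, a carrier of synaptic vesicles, had 19.6, 23.7 and 14.3 CPM in injured against 14.2, 10.9 and 7.05 CPM in sham without overlap, and missed the threshold (log2 change 0.84, SE 0.30, adjusted p = 0.067).

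**Figure D3:**
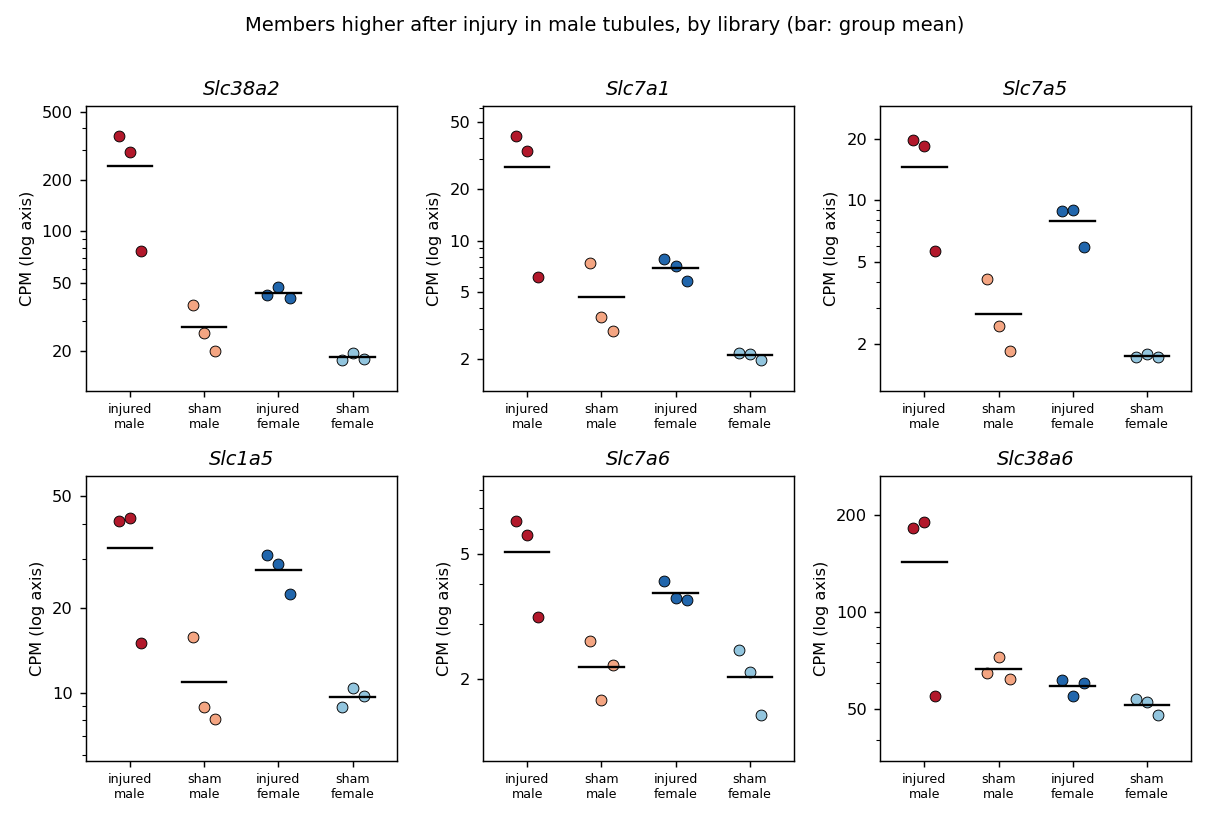
CPM (log axis) of the 6 members that were higher after injury in male tubules, in every tubule library; points are libraries and bars group means. In injured males 2 libraries lie far above sham, as Slc38a2 shows with 359 and 289 CPM, and the remaining one is nearer to it at 76.8 CPM.

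The same question was put to female tubules. None of the 43 members passed, against 0.0109% of all genes tested (edgeR), although 13 members and 2032 of all genes (11.1%) had an unadjusted p under 0.05. The median log2 change was 0.015 over the members and 0.004 over all genes. None of the 4 feeding carriers called in males passed. In each of them the injured female libraries lay above the sham libraries, which held for 15.3% of all genes. Slc38a2 had 42.7, 47.1 and 40.9 CPM in injured against 17.7, 19.3 and 18.0 CPM in sham female tubules (log2 change 1.25, SE 0.42, adjusted p = 0.27). Slc7a5 had 8.91, 8.94 and 5.96 CPM in injured against 1.73, 1.78 and 1.73 CPM in sham (log2 change 2.18, SE 0.45, adjusted p = 0.082). Slc7a1 had 7.83, 7.11 and 5.79 CPM in injured against 2.20, 2.16 and 1.98 CPM in sham (log2 change 1.71, SE 0.56, adjusted p = 0.25). Slc1a5 had 31.1, 28.7 and 22.4 CPM in injured against 8.90, 10.4 and 9.73 CPM in sham (log2 change 1.50, SE 0.36, adjusted p = 0.12). Slc36a4, an intracellular carrier of proline and tryptophan, had 8.91, 8.90 and 6.07 CPM in injured against 2.84, 4.05 and 3.57 CPM in sham, without overlap (log2 change 1.19, SE 0.27, adjusted p = 0.1).

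These female values depend on how the spread is estimated. In the fit of the 6 female tubule libraries alone, those 5 genes passed (11.9% of 42 members tested, against 6.9% of all genes), with adjusted p of 0.00068 for Slc38a2, 0.0014 for Slc1a5, 0.0024 for Slc7a5, 0.0044 for Slc7a1 and 0.023 for Slc36a4. They passed as well when injured male replicate 3 was left out of the shared fit, which gave 5 of 44 members (11.4%, against 2.59% of all genes). DESeq2 called 3 members, Slc1a5, Slc7a5 and Slc36a4 (against 3.76% of all genes). No apical carrier passed in females under any of these fits. Slc6a18 had 454, 452 and 507 CPM in injured against 525, 548 and 594 CPM in sham female tubules (log2 change -0.24, SE 0.19, adjusted p = 0.76). Slc6a20b had 301, 287 and 309 CPM in injured against 409, 392 and 324 CPM in sham (log2 change -0.33, SE 0.15, adjusted p = 0.43). In both carriers the injured libraries lay below the sham libraries, as in 11.8% of all genes. Proximal tubule markers summed to 12810 to 15265 CPM in injured against 15757 to 18951 CPM in sham female tubules, with none of 10 called and a median log2 change of -0.309. Slc7a13 had 8.26, 11.8 and 16.3 CPM in injured against 46.0, 11.8 and 31.5 CPM in sham (log2 change -1.30, SE 0.50, adjusted p = 0.34), with overlap. Markers of the thick ascending limb and distal tubule summed to 6288 to 7858 CPM in injured against 2364 to 2718 CPM in sham female tubules. Collecting duct markers summed to 907 to 1141 CPM against 95.3 to 282 CPM. None of the 10 markers of either list was called, with median log2 changes of 0.585 and 2.03. With a score of distal tubule markers as a covariate no member passed either (against 0% of all genes). Beyond that fit, the part of these 3 marker lists in the female values was not tested.

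**Figure D4:**
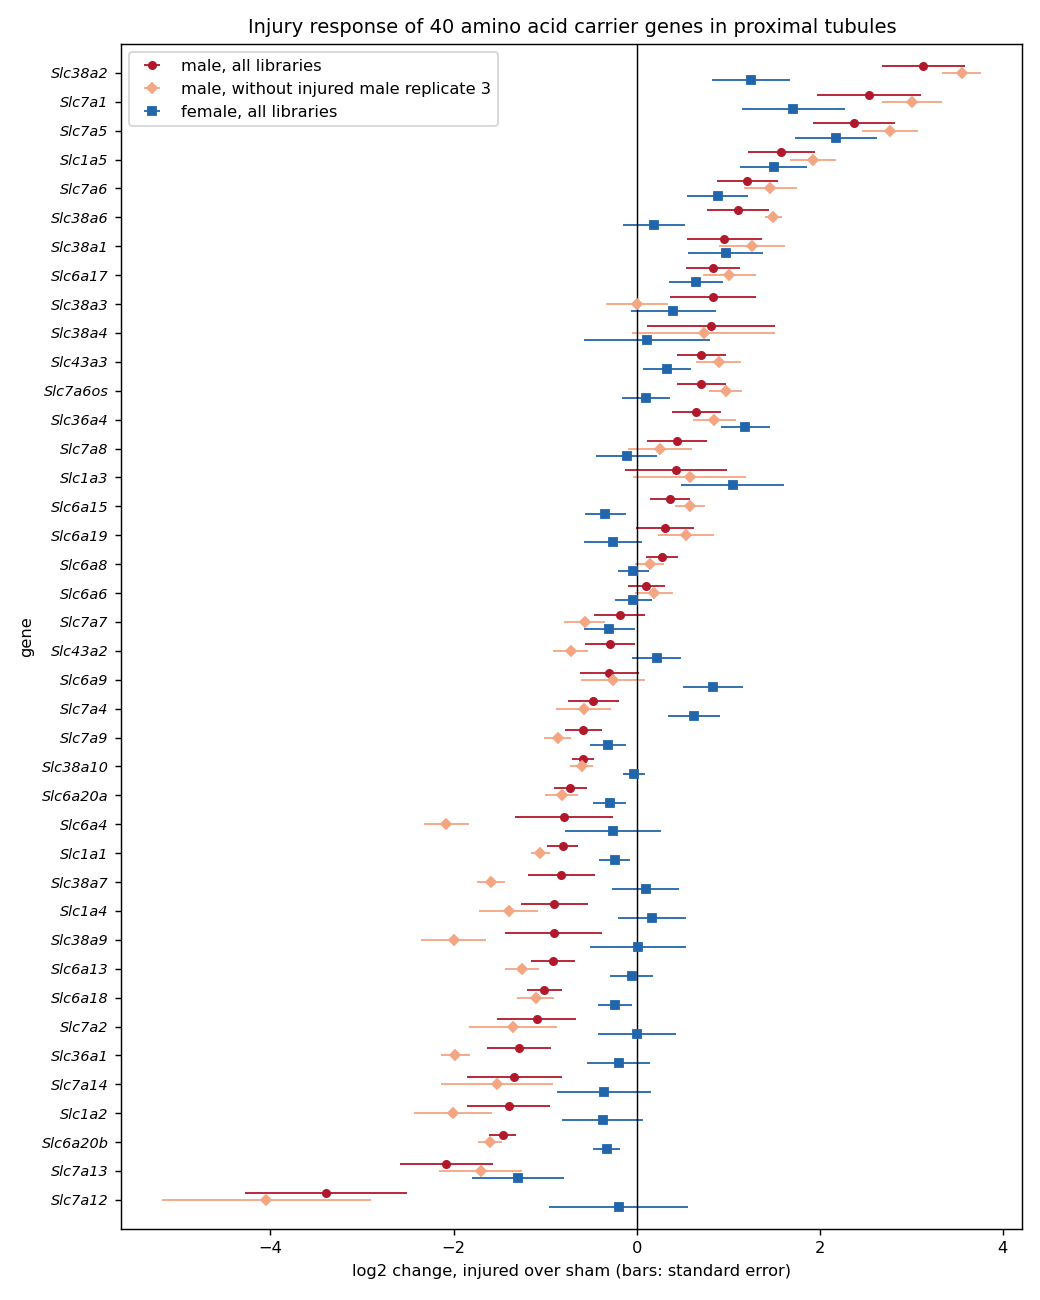
Log2 change after injury in tubules for the 40 tested members with a standard error of at most 1 in males, with standard errors as bars: males with all libraries (circles), males without injured replicate 3 (diamonds) and females (squares). Slc38a2, Slc7a1, Slc7a5 and Slc1a5 are to the right of 0 in both sexes, while Slc6a20b is at -1.46 in males and -0.33 in females.

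The difference between the male and female injury response was tested directly. Only 1 of 43 members passed, Slc6a20b, which is 2.33% against 0.855% of all genes. The male minus female difference in log2 change was -1.14 (SE 0.21, adjusted p = 0.034), with changes of -1.46 in males and -0.33 in females. DESeq2 called 3 members in this test, against 9.16% of all genes. The call of Slc6a20b was lost when any 1 library other than injured male replicate 3 or sham male replicate 3 was left out. For Slc38a2 the male minus female difference in log2 change was 1.88 (SE 0.59, adjusted p = 0.14), and for Slc7a5 it was 0.20 (SE 0.61, adjusted p = 0.88). A sex difference in the response of these carriers was not shown with all libraries. Without injured male replicate 3, 20 of 44 members passed (6 with a more positive and 14 with a more negative response in males, 45.5% against 30.5% of all genes). Among them were Slc38a2 at 2.30 (adjusted p = 0.00018), Slc6a18 at -0.87 (adjusted p = 0.027), Slc1a1 at -0.81 (adjusted p = 0.0013) and Slc36a1 at -1.78 (adjusted p = 0.00013).

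The next comparison asked how the sexes differ without injury. In sham tubules, 4 of 43 members were higher and 3 lower in males than in females, which is 16.3% against 5.8% of all genes (3.24% higher and 2.56% lower). When injured male replicate 3 was left out, 12 of 44 passed (7 higher and 5 lower, 27.3% against 13.6% of all genes), and without sham male replicate 3 9 did (against 5.84% of all genes). The median log2 difference was 0.189 over the members and 0.013 over all genes. Slc7a13 had the largest difference. It had 1085, 1044 and 822 CPM in male sham tubules and 46.0, 11.8 and 31.5 CPM in female sham tubules (log2 difference 5.05, SE 0.58, adjusted p = 0.00041). Slc6a9, the glycine carrier GlyT1, had 26.6, 25.9 and 25.8 CPM in male against 1.79, 5.99 and 4.87 CPM in female sham tubules (log2 difference 2.62, SE 0.34, adjusted p = 0.00097). Slc6a9 shares 26.1% of its 31-base words with Ccdc24 on the opposite strand, so its reads are uncertain to that extent. Slc1a4, an exchanger of alanine, serine and cysteine, had 57.9, 52.2 and 49.3 CPM in male against 6.28, 15.5 and 12.9 CPM in female sham tubules (log2 difference 2.20, SE 0.38, adjusted p = 0.0056). Slc6a15, a sodium-coupled carrier of branched-chain amino acids and proline known from brain, had 28.9, 24.1 and 33.3 CPM in male against 13.9, 11.3 and 10.1 CPM in female sham tubules (log2 difference 1.29, SE 0.23, adjusted p = 0.006). In all 4 genes the lowest male library was above the highest female library, as in 15.2% of all genes.

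The 3 members that were lower in males carry cystine, dibasic and neutral amino acids. Slc7a9, the apical light chain, had 105, 119 and 134 CPM in male against 245, 225 and 206 CPM in female sham tubules (log2 difference -0.91, SE 0.20, adjusted p = 0.022). Slc7a7, its basolateral counterpart for dibasic amino acids, had 182, 210.0 and 325 CPM in male against 618, 543 and 635 CPM in female sham tubules (log2 difference -1.32, SE 0.28, adjusted p = 0.019). Slc7a8, the basolateral exchanger of neutral amino acids, had 56.6, 53.5 and 124 CPM in male against 395, 258 and 254 CPM in female sham tubules (log2 difference -1.95, SE 0.34, adjusted p = 0.0057). None of the 3 overlapped between the sexes, and 14.6% of all genes were likewise lower in every male library. Slc7a12 had 9.13, 9.31 and 2.55 CPM in male against 10.3, 19.2 and 72.9 CPM in female sham tubules, with every male library lower, but it did not pass (log2 difference -2.29, SE 0.80, adjusted p = 0.14). Macrophage and dendritic cell markers summed to 210.3 to 422 CPM in male against 34.5 to 70.4 CPM in female sham tubules. Of these 8 markers only 1 was called, as higher, and their median log2 difference was 0.194. Proximal tubule markers summed to 18042 to 21074 CPM against 15757 to 18951 CPM, with 2 of 10 higher, 1 lower and a median log2 difference of -0.038. Collecting duct markers summed to 180 to 1366 CPM in male against 95.3 to 282 CPM in female sham tubules, with 1 of 10 higher and a median log2 difference of 1.49. The part of these lists in the sex differences was not tested.

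After injury, 8 of 43 members were higher and 8 lower in male than in female tubules, which is 37.2% against 23.3% of all genes. The 7 genes called in sham tubules were all called in injured tubules in the same direction, in other libraries but with a shared estimate of the spread. Slc7a13 had 318, 287 and 93.6 CPM in injured male against 8.26, 11.8 and 16.3 CPM in injured female tubules (log2 difference 4.26, SE 0.56, adjusted p = 0.00088). Slc6a15 had 45.0, 41.1 and 24.9 CPM in injured male against 8.93, 9.58 and 9.35 CPM in injured female tubules (log2 difference 1.99, SE 0.23, adjusted p = 0.00043). Slc7a12 had 0.540, 0.309 and 1.11 CPM in injured male against 10.9, 54.4 and 24.1 CPM in injured female tubules (log2 difference -5.48, SE 0.95, adjusted p = 0.0033). The sexes did not overlap in these 3 genes, as in 17.6% of all genes with males higher and 21.9% with males lower. The difference in Slc7a12 was the largest of any member. Slc38a2 had 359, 289 and 76.8 CPM in injured male against 42.7, 47.1 and 40.9 CPM in injured female tubules (log2 difference 2.47, SE 0.44, adjusted p = 0.0037). Slc7a1 was likewise higher in injured males, with 41.0, 33.7 and 6.14 CPM against 7.83, 7.11 and 5.79 CPM in injured females (log2 difference 1.96, SE 0.55, adjusted p = 0.027), and its replicate 3 lay within the female range. Slc43a2 had 99.4, 71.0 and 173 CPM in injured male against 262, 215 and 227 CPM in injured female tubules (log2 difference -1.04, SE 0.27, adjusted p = 0.021).

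The pairs seen in sham tubules kept their order. Slc6a9 had 19.4, 24.4 and 19.9 CPM in injured male against 8.53, 7.53 and 6.54 CPM in injured female tubules (log2 difference 1.49, SE 0.33, adjusted p = 0.0097). Slc7a8 had 116, 70.4 and 132 CPM in injured male against 291, 248 and 302 CPM in injured female tubules (log2 difference -1.40, SE 0.33, adjusted p = 0.014). Slc7a9 had 73.9, 57.6 and 108 CPM in injured male against 196, 185 and 163 CPM in injured female tubules (log2 difference -1.18, SE 0.20, adjusted p = 0.0032). None of these overlapped between the sexes, and the same held for Slc7a7 (log2 difference -1.21, SE 0.28, adjusted p = 0.013). Of all genes, 17.6% were higher and 21.9% lower in males without overlap. Slc7a7 shares 5.91% of its 31-base words with Oxa1l, which it overlaps on the opposite strand.

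Other calls in injured tubules were smaller or uncertain. Slc6a20b differed by -1.20, Slc6a13 by -0.83 and Slc6a20a by -0.55 on the log2 scale, each lower in males. Slc38a6 and Slc7a6os were higher in males by 1.28 and 0.85, with libraries of the sexes overlapping in both. Slc1a4 was higher in males by 1.13 (adjusted p = 0.046), and its difference was -0.125 with a score of distal tubule markers as a covariate. Those markers summed to 2302 to 5365 CPM in injured male against 6288 to 7858 CPM in injured female tubules, and 5 of 10 were lower in males. Proximal tubule markers summed to 8568 to 11169 CPM in injured male against 12810 to 15265 CPM in injured female tubules (3 of 10 lower, 1 higher). Collecting duct markers summed to 352 to 520 CPM in injured male against 907 to 1141 CPM in injured female tubules (3 of 10 lower). Neutrophil markers summed to 4.82 to 33.3 CPM in injured males, against 1.20 to 3.87 CPM in injured females, where Ly6g was at 0 (3 of 6 higher). With the distal marker covariate 19 members passed (against 27.1% of all genes), and 12 of the calls made without it were kept. Beyond that fit, the part of these lists in the sex differences was not tested. A fit of the 6 injured libraries alone called 8 members (19.5% of 41, against 9.97% of all genes), namely Slc7a13, Slc38a2, Slc6a15, Slc6a9, Slc7a12, Slc7a8, Slc6a20b and Slc7a9. With injured male replicate 3 left out, 23 of 44 passed (8 higher and 15 lower, 52.3% against 44.1% of all genes). Without injured female replicate 1, 2 or 3, 8, 9 and 9 passed (against 9.89%, 10.3% and 10.7% of all genes), and without injured male replicate 1 or 2, 9 and 8 did (against 9.99% and 9.82%).

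**Figure D5:**
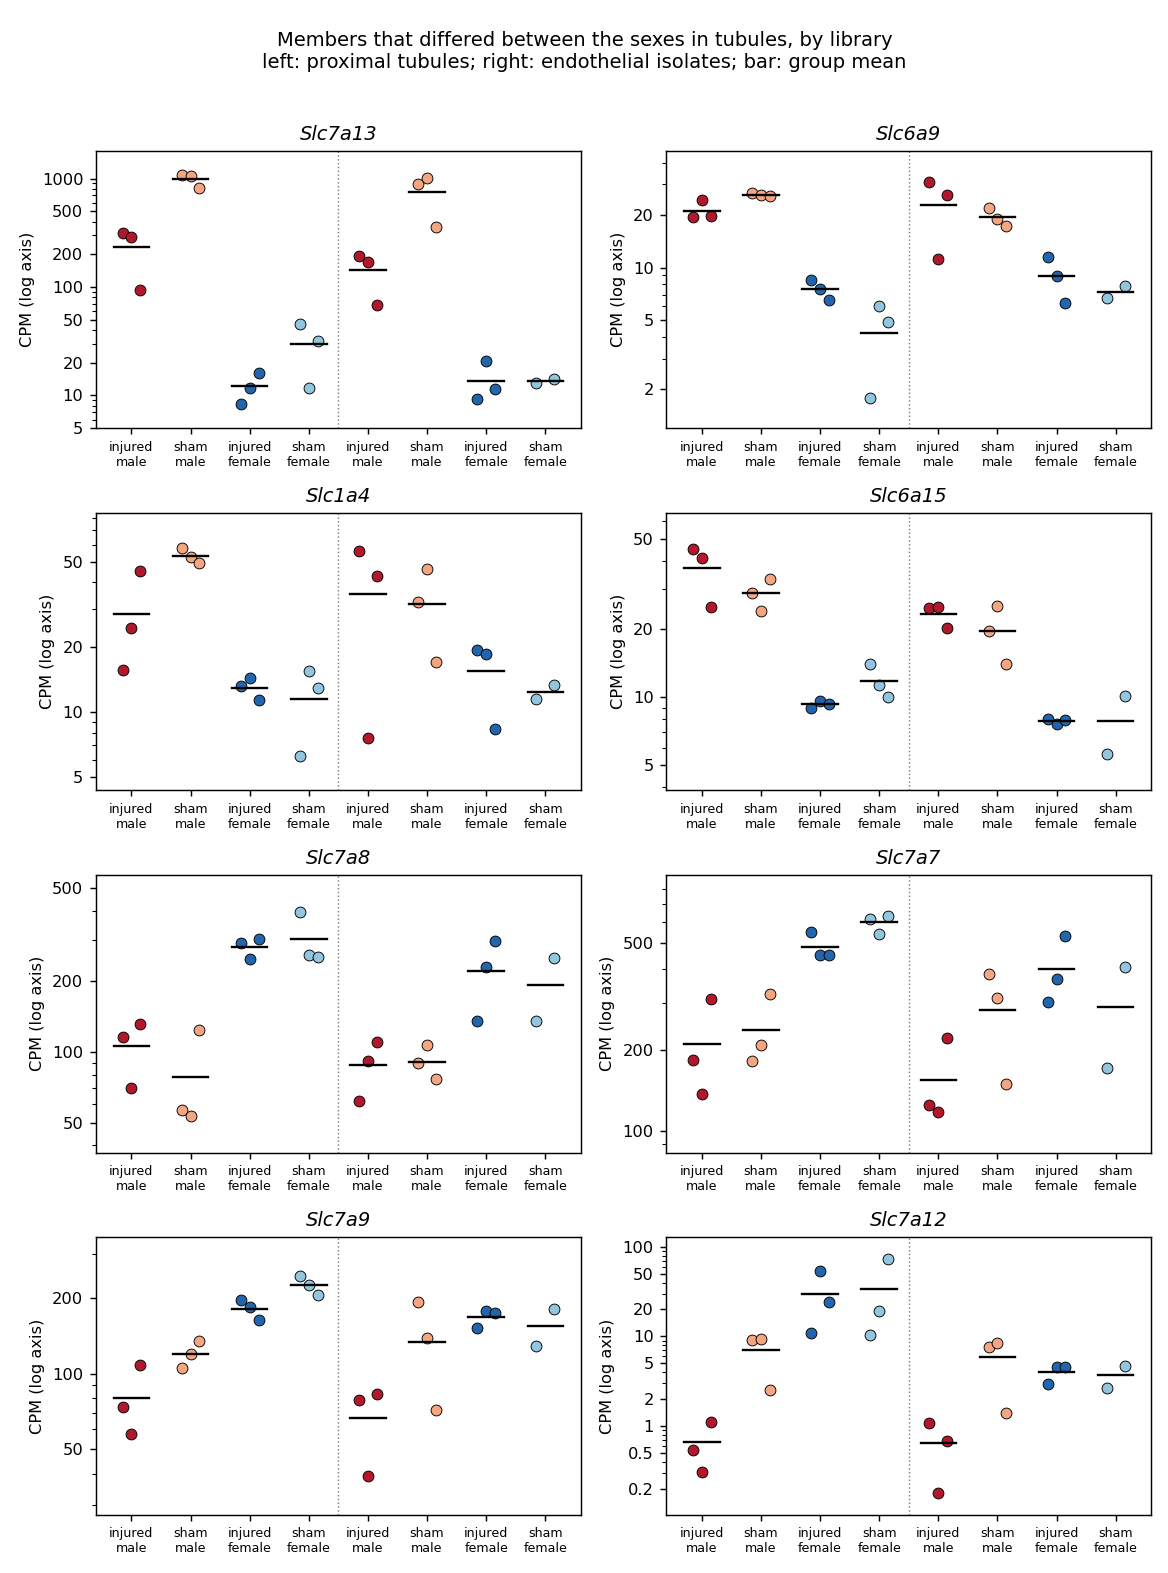
CPM (log axis) of 8 members with different levels in male and female tubules, in every library of both isolations; points are libraries and bars group means. The male libraries of Slc7a13 lie between 68.3 and 1085 CPM and the female libraries between 8.26 and 46.0 CPM, in tubules and in endothelial isolates alike.

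Between the isolations, 12 of 45 members were higher and 3 lower in sham endothelial isolates than in sham tubules, which is 33.3% against 12.3% of all genes (10.4% higher and 1.86% lower). The CPM in this comparison were scaled over all libraries together. Tubule and endothelial libraries that share a title number were not paired in it. The median log2 difference was -0.103 over the members and 0 over all genes. The feeding carriers were the main group, with 6 of 9 higher and none lower. Slc38a2 had 35.7, 40.6 and 125 CPM in male and 119 and 60.0 CPM in female sham endothelial isolates, against 39.3, 26.7 and 20.9 CPM in male and 18.3, 20.2 and 18.6 CPM in female sham tubules (log2 difference 1.72, SE 0.41, adjusted p = 0.0085). The isolates overlapped the tubules by 1 library, male isolate replicate 1, which was below male tubule replicate 1. Slc7a5, which in endothelium is known as the leucine carrier of the blood-brain barrier, had 7.62, 5.78 and 7.20 CPM in male and 8.95 and 9.66 CPM in female isolates, against 4.35, 2.57 and 1.92 CPM in male and 1.80, 1.86 and 1.79 CPM in female tubules, without overlap (log2 difference 1.79, SE 0.28, adjusted p = 0.00038). The other feeding carriers called were Slc7a1 at 1.68, Slc1a5 at 1.50 and Slc38a1 at 1.31 on the log2 scale, and Slc6a14, which stayed under 1 CPM. Outside this group Slc43a3, which carries purine bases, differed by 1.90, Slc36a4 by 1.87 and the glutamate carrier Slc1a3 by 1.70. The betaine carrier Slc6a12 had 6.08, 3.20 and 10.2 CPM in male and 6.68 and 6.35 CPM in female isolates, against 2.82, 1.56 and 0 CPM in male and 0, 0 and 0.256 CPM in female tubules, without overlap (log2 difference 4.18, SE 0.86, adjusted p = 0.0029). No apical carrier of the 7 tested was called, nor was any of the 10 proximal tubule markers (median log2 difference -0.414), while 9 of 10 endothelial markers were higher. So were 4 of 6 podocyte, 4 of 10 distal tubule, 3 of 10 collecting duct and 3 of 6 lymphocyte markers, with none lower. Of 8 mural and fibroblast markers 2 were higher and 1 lower, of 8 macrophage and dendritic cell markers 1 was higher, and none of 7 neutrophil markers was called. The part of tubule RNA and of these other lists in the isolates' carrier levels was not tested. The lower members were Slc7a12, Slc6a15 and Slc6a8, at -1.90, -0.71 and -0.45 on the log2 scale.

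Within the endothelial isolates few members passed. Injury in males called 1 of 44, Slc7a5, which is 2.27% against 0.864% of all genes (0.537% higher). DESeq2 called 7 members, against 6.38% of all genes. Slc7a5 had 17.9, 28.1 and 14.9 CPM in injured against 8.42, 6.22 and 7.33 CPM in sham male isolates, with no overlap (log2 change 1.47, SE 0.29, adjusted p = 0.046). Slc7a13 had 195, 171 and 68.3 CPM in injured against 888, 1009.9 and 358 CPM in sham male isolates (log2 change -2.38, SE 0.48, adjusted p = 0.051), the same direction as in tubules. Slc38a2 had 131, 564 and 159 CPM in injured against 39.4, 43.7 and 127 CPM in sham male isolates (log2 change 2.02, SE 0.60, adjusted p = 0.15). Its injured libraries all exceeded the sham libraries, but by little in replicate 1 against sham replicate 3. Injured libraries all above sham libraries were found in 8.81% of all genes. Without sham male replicate 3, 7 of 44 members passed (15.9%, against 3.6% of all genes): Slc38a2, Slc38a1, Slc7a1 and Slc7a5 were higher and Slc6a20b, Slc7a12 and Slc7a13 lower. Without injured male replicate 2, Slc7a5 and Slc38a3 passed (4.55%, against 1.75% of all genes). The count was 1 without injured male replicate 3 (against 0.641% of all genes). It was 0 without any 1 of the other libraries of the fit (against 0% to 0.439% of all genes). Proximal tubule markers in these isolates summed to 6392 to 7388 CPM in injured against 9730 to 17654 CPM in sham males. None of the 10 was called, with a median log2 change of -0.986. Neutrophil markers summed to 12.8 to 120.2 CPM in injured against 3.60 to 5.43 CPM in sham male isolates, where Ly6g was at 0, with a median log2 change of 3.71 and none of 7 called. With a score of tubule markers as a covariate no member passed (against 0% of all genes). Beyond that fit, the part of both lists was not tested.

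In female isolates no member passed after injury, as for all genes (0%). No member had an unadjusted p under 0.05 in edgeR (against 2.39% of all genes). DESeq2 also called none (against 0.167% of all genes). The sex difference in the response called no member either (0% of all genes), with 7 members at an unadjusted p under 0.05 (against 6.5% of all genes). DESeq2 called none in that test (against 0.353% of all genes). Between the sexes, Slc7a13 was the only call in sham isolates (2.27%, against 0.432% of all genes). It was lost without either sham female library (against 0.116% of all genes each time). Without injured male replicate 2, Slc6a9 passed as well (against 1.1% of all genes). Slc7a13 had 888, 1009.9 and 358 CPM in male against 13.1 and 14.1 CPM in female sham isolates (log2 difference 5.79, SE 0.68, adjusted p = 0.0033). After injury 3 of 44 passed (6.82%, against 1.5% of all genes, 0.663% higher and 0.834% lower). Slc7a13 was again higher in males, with 195, 171 and 68.3 CPM against 9.23, 20.6 and 11.4 CPM in females (log2 difference 3.40, SE 0.51, adjusted p = 0.0087). Slc6a15 was higher too, with 24.8, 24.9 and 20.2 CPM in male against 7.99, 7.59 and 7.92 CPM in female injured isolates (log2 difference 1.57, SE 0.29, adjusted p = 0.022). Slc6a20b was lower, with 134, 78.7 and 129 CPM in male against 314, 366 and 289.5 CPM in female injured isolates (log2 difference -1.50, SE 0.32, adjusted p = 0.048). None of the 3 overlapped, as in 11.4% of all genes with males higher and 12.6% with males lower. Proximal tubule markers summed to 6392 to 7388 CPM in male against 13016 to 16654 CPM in female injured isolates, with 2 of 10 lower and a median log2 difference of -1.04. With a score of tubule markers as a covariate no member passed (against 0.0804% of all genes), and the difference of Slc6a20b was -0.29 (adjusted p = 0.8). Its call held in 4 of 18 alternatives. DESeq2 called 12 members, against 6.58% of all genes. When sham male replicate 3 was left out, 7 passed (2 higher and 5 lower, 15.9% against 2.4% of all genes). Without injured female replicate 1 or 3 none did (against 0.524% and 0.535% of all genes). Without injured female replicate 2 or injured male replicate 1 the count was 1 (against 0.389% and 0.687% of all genes).

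The proteins that carriers work with were examined beside them. Of 12 partner genes in male tubules, 1 was higher and 4 lower after injury, against 19% of all genes called. Slc3a2, the heavy chain of the basolateral and feeding exchangers, had 368, 332 and 307 CPM in injured against 176, 179 and 224 CPM in sham male tubules (log2 change 0.80, SE 0.13, adjusted p = 0.0039). Slc3a1, the heavy chain of Slc7a9 and Slc7a13, went the other way, with 379, 342 and 320.5 CPM in injured against 549.7, 609 and 545 CPM in sham (log2 change -0.71, SE 0.11, adjusted p = 0.0028). Neither gene overlapped between the groups, as in 14.1% of all genes with injured higher and 16.7% with injured lower. The brush border scaffold Pdzk1 fell by 1.10 and the peptide carrier Slc15a2 by 0.89 on the log2 scale. In females Slc3a2 had 375, 329 and 365 CPM in injured against 440.3, 392 and 432 CPM in sham tubules (log2 change -0.24, SE 0.13, adjusted p = 0.56). The male response exceeded the female response of Slc3a2 by 1.04 on the log2 scale (adjusted p = 0.033), the only partner called. In sham tubules its male minus female log2 difference was -1.13. The collectrin gene Cltrn had 1146, 1073 and 642 CPM in injured against 1081, 1461 and 1143 CPM in sham male tubules, with overlap (log2 change -0.36, SE 0.20, adjusted p = 0.21).

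Genes of the response to amino acid shortage, a list that is known to respond to such stress, were counted over 19 gene records, because Ddit3 has 2. In male tubules 12 were higher and 1 lower after injury, with a median log2 change of 1.67, against 10.6% of all genes higher and 8.43% lower. Asns, asparagine synthetase, had 25.1, 34.0 and 10.0 CPM in injured against 5.21, 2.81 and 1.82 CPM in sham male tubules (log2 change 2.81, SE 0.58, adjusted p = 0.01). Trib3, a pseudokinase induced by the response, had 37.9, 39.1 and 1.42 CPM in injured against 1.58, 0.381 and 0.202 CPM in sham (log2 change 5.18, SE 1.25, adjusted p = 0.019). Psat1, an enzyme of serine synthesis, had 69.1, 93.9 and 171 CPM in injured against 16.6, 14.2 and 22.5 CPM in sham (log2 change 2.65, SE 0.37, adjusted p = 0.002). As with the feeding carriers, injured replicate 3 was the lowest of its group for Asns and Trib3, yet it was the highest for Psat1. Shmt2, a mitochondrial serine enzyme, was the gene that fell (log2 change -1.20, SE 0.16, adjusted p = 0.0016). In female tubules none of the 19 records passed (against 0.0109% of all genes), with a median log2 change of 0.521. The direct test of the male minus female response also called none of the 19, against 0.855% of all genes. Its median log2 difference over the records was 1.20, so a sex difference in the response of these genes was not shown. In endothelial isolates of injured males 3 were higher, Asns, Mthfd2 and Trib3, against 0.537% of all genes.

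Promoters of these genes were read for the composite element that C/EBP and ATF4 bind, TGATGNAA, on both strands of the RefSeq window from 250 bases before to 50 after each start (GRCm38.p6). A window was found for 43 of the 61 members, and 3 held a match (6.98%): Slc1a4, Slc6a21 and Slc7a7. Among all 27025 genes with a window 4.51% held one. Of the 18 genes of the response list with a window, 6 held one: Asns, Chac1, Trib3, Pycr1, Atf3 and Nupr1. The windows below are printed 5′ to 3′ on the gene's strand, all of them minus, with a match in capitals. Asns (chr6:7693160-7693459) is shown as the response gene with a match, Slc1a4 (chr11:20332664-20332963) as the carrier with one, and Slc38a2 (chr15:96699679-96699978) and Slc7a1 (chr5:148399855-148400154) as the carriers that rose the most.
Asns: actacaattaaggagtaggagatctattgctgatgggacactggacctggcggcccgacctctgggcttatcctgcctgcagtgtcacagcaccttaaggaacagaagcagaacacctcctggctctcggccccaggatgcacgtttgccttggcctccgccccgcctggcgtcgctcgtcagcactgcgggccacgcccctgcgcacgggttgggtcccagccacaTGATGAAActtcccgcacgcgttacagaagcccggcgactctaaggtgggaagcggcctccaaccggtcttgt
Slc1a4: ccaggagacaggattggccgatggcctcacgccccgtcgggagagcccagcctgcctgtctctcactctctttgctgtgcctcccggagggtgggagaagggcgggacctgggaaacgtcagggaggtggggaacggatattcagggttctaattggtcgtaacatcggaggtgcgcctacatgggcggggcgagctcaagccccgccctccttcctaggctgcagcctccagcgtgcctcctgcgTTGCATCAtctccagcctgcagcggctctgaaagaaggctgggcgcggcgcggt
Slc38a2: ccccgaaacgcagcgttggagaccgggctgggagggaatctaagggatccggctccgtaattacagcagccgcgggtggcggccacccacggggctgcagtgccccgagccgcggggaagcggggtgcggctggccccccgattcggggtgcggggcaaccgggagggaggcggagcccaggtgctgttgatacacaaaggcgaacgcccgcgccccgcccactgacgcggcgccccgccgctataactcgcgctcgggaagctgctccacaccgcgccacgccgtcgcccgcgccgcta
Slc7a1: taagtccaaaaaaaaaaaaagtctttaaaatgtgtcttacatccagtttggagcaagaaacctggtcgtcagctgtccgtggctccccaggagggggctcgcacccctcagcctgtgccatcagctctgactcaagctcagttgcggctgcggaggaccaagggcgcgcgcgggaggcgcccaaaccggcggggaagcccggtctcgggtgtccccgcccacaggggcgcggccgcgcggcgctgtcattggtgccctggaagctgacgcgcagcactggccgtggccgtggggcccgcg

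The match began 23 bases before the start of Asns and 4 bases before that of Slc1a4, where it was read on the opposite strand and so appears as TTGCATCA. The windows of Slc38a2 and Slc7a1 held none, which says only that these letters are not in these windows. Asns rose after injury in males. Slc1a4 had 15.7, 24.6 and 45.2 CPM in injured against 57.9, 52.2 and 49.3 CPM in sham male tubules, all lower and without a call (log2 change -0.90, SE 0.37, adjusted p = 0.1). Slc7a7, with matches that began 141 bases and 1 base before the start in 1 of its windows, had 184, 138 and 309.9 CPM in injured against 182, 210.0 and 325 CPM in sham (log2 change -0.18, SE 0.28, adjusted p = 0.68). Neither of these carriers with a match was called after injury, and the match is a description of the sequence. The windows were also read for an HNF1 site, found in 0 of the 43 members (0.47% of all genes). An androgen response element was found in 1 of the 43, Slc38a11 (2.33%, against 0.537% of all genes).

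The authors' deposited tables were compared with these calls. For injury in male tubules the authors' deposited table called 16 of 43 members with an adjusted p (37.2%, against 22.8% of all its genes), and 13 of them were called here in the same direction. The authors' deposited table for injury in female tubules called 1 member, Slc36a4, against 2.5% of its genes. In sham tubules the authors' deposited table for male against female called 8 members (17.8%, against 8.74%), 7 of which were called here. In injured tubules the authors' deposited table called 17 (38.6%, against 24.9%), 15 of them called here. In endothelial isolates the authors' deposited tables called 6 members for injury in males (against 5.3%), 0 for injury in females (against 0.316%), 2 for sham males against females (against 2.02%) and 9 for injured males against females (against 5.82%). No member was called in opposite directions in the authors' deposited tables and here.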

How the data were processed

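Per the labels' protocols, polyA-selected RNA libraries were made with a NEBNext kit. Per the submitters' processing notes, reads were quantified with Salmon 0.13.1 (build GRCm38) and compared with DESeq2. The deposited files give, per transcript, the authors' estimated count (NumReads) and TPM, and the deposited comparison tables give the authors' log2 fold change and adjusted p-value. The kit's strand setting is not given in the sources used here, so antisense overlaps are uncertain.

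For each gene, the transcripts' estimated counts were added up, then rounded to whole numbers. Libraries 3 and 3B of sham male tubules were added. The quasi-likelihood test of edgeR 4.0.16 (R 4.3.3), with TMM scaling, a separate mean for every group and genes kept by filterByExpr at a count of 10 and a total of 15, was run in separate fits of tubules (18369 genes), endothelial isolates (19910) and both (21206). P-values were adjusted over all genes and called under 0.05. Standard errors come from dividing each absolute log2 change by the square root of its F. Alternatives were DESeq2 1.42.0, other scaling, no filter, length offsets, marker covariates, a replicate block, only the groups compared, and each library left out. Members and lists were chosen with earlier results of these data known. Members named with values in every library were those with the highest mean TPM, those called with the smallest adjusted p, and members of the role groups with at least 5 CPM in a group. Values of some genes in the counts are not reported here. Shared 31-base words were counted in GENCODE M21 transcripts.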

Additional observations from a re-analysis of the deposited data

Results flagged for a closer look

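In tubules, 2 genes had an injury response that differed between the sexes by the direct test, with an adjusted p under 0.05 in edgeR. Slc6a20b differed by -1.14 on the log2 scale (males minus females), with changes of -1.46 in males and -0.33 in females. Slc3a2, the heavy chain of several Slc7 carriers and no member of the families, differed by 1.04, with changes of 0.80 in males and -0.24 in females. Slc6a20b kept its direction in all 20 alternatives and passed in 8 of them.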

How the results depend on the processing

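All 59 member calls were recomputed under the alternatives: 1117 of 1358 recomputed values stayed past the threshold in the same direction, 240 kept the direction without passing, and 1 turned. The one that turned was Slc1a4 for male against female injured tubules, at -0.125 with the distal marker covariate. With DESeq2 the count of members called was 3 for injury in female tubules (3.76% of all genes), 3 for the sex difference in the response of tubules (9.16%), 7 for injury in male isolates (6.38%), 3 for male against female sham isolates (1.96%) and 12 for injured isolates (6.58%). With no low-count filter it was 2 for injury in female tubules (0.476% of all genes), 7 for injury in male isolates (2.53%) and 12 for male against female injured isolates (2.41%). With length offsets it was 0 for the sex difference in the response of tubules (0.332% of all genes) and 0 for injury in male isolates (0.306%). With the distal marker covariate it was 23 for injury in male tubules (31.9% of all genes) and 12 for the sex difference in response (20.4%). With the tubule marker covariate it was 0 for injury in male isolates (0%) and 0 for male against female injured isolates (0.0804%). With only the groups compared in the fit it was 1 for injury in male tubules (0.913%), 5 for injury in female tubules (6.9%), 8 for male against female injured tubules (9.97%) and 0 for injury in male isolates (0.0113%). The causes of these changes were not tested.

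Same-numbered replicates of different groups correlated by -0.066 to 0.176 in tubules and -0.282 to 0.248 in isolates. Within an isolation these replicates carry different title numbers, so this check does not cover libraries that share a title number. The 11 pairs of a tubule and an isolate library with 1 title number correlated by -0.43 to 0.575 (median 0.022). The 220 other pairs had -0.664 to 0.548 (median -0.002). With a block by title number, 13 members passed for sham isolates against sham tubules (8.45% of all genes). With a replicate block the count was 0 for the sex difference in the response of tubules and 1 for male against female injured isolates, and 14 for injury in male tubules (0.294%, 0.668% and 17.8% of all genes). For injury in male isolates the block again gave 1 member, but Slc7a5 was lost (adjusted p = 0.11) and Slc7a13 was lower instead (log2 change -2.37, adjusted p = 0.047), against 0.256% of all genes. Leaving out each library gave 5 to 30 calls for injury in male tubules (4.97% and 42.5% of all genes), 0 to 5 in female tubules (2.59% at the highest), 5 to 12 for male against female sham tubules (13.6% at the highest), 8 to 23 for injured tubules (44.1% at the highest) and 0 to 20 for the sex difference in response (30.5% at the highest). In isolates the ranges were 0 to 7 for injury in males (3.6% at the highest), 0 to 0 in females, 0 to 2 for male against female sham (1.1%), 0 to 7 for injured (2.4%) and 0 to 0 for the sex difference in response. For sham isolates against sham tubules the range was 10 to 15 (6.02% of all genes at the lowest). The highest tubule counts came without injured male replicate 3. Groups of 2 or 3 libraries limit every call.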

Other observations

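The 2 libraries sequenced from sham male tubule replicate 3 differed from each other, with a chi-square per degree of freedom over genes of 255, against 39.9 between replicates 1 and 2. Slc7a13 had 704 CPM in library 3 and 836 CPM in library 3B, Slc38a10 146 and 192 CPM, and Slc7a9 109 and 143 CPM. Slc6a18 had 435 and 481 CPM. Slc7a14, of low level, had 2.10 CPM in library 3 and 0.207 CPM in library 3B. Library 3B was nearer to replicates 1 and 2 than library 3 was, with a chi-square per degree of freedom of 101 and 98.5.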
